A study of Mus musculus with 2 samples.

Results

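The genes described here are 10 markers of tissue macrophages, the phagocytes that live in fat and most other organs: Lyz1, Lyz2, Mrc1, Cd163, Timd4, Folr2, Trem2, Adgre1, Itgax and Csf1r. They were chosen by name, as markers of resident and of lipid-associated macrophages, and are 10 of the 43346 Ensembl genes measured. Polyadenylated RNA was sequenced from gonadal fat, a white adipose depot that lies against the gonads, of C57BL/6J mice aged 8 weeks. The 2 libraries, labelled as biological replicates 1 and 2, form 1 group, and no second condition was measured. The labels describe littermates of both sexes pooled together, and both libraries carry 1 donor identifier, so how many mice stand behind each library is unknown. The labels record no treatment, no modified allele and no sorting of cells, so all cells of the dissected tissue were read together.

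Macrophages of fat take up dying cells, cell debris, iron and lipid. Resident macrophages, many of them lying along blood vessels, are known for scavenger receptors such as the mannose receptor (Mrc1), the haemoglobin receptor CD163 (Cd163), the phosphatidylserine receptor TIM-4 (Timd4) and folate receptor beta (Folr2). Lipid-associated macrophages, which gather around dying fat cells in obesity, are known for the lipid receptor TREM2 (Trem2) and for the integrin chain CD11c (Itgax), which dendritic cells also carry. The receptor for the growth factors CSF1 and IL-34 (Csf1r) and the surface antigen F4/80 (Adgre1) mark mouse macrophages broadly. Lysozyme breaks bacterial cell walls, and the mouse has a pair of genes for it: Lyz2 is known from macrophages and other myeloid cells, and Lyz1 from Paneth cells of the gut.

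Lyz1 and Lyz2 are neighbours whose transcripts are alike, so the coding stretch that separates them best is shown first. On the build GRCm38, Lyz2 spans chr10:117277331-117282321 and Lyz1 spans chr10:117287797-117292868. Both lie on the minus strand, have 4 exons each and are 5475 bases apart. Their coding sequences are 447 bases long, differ at 22 of these and are 95.1% identical. The differences are crowded near the start. The coding stretch of 76 bases (the read length) with the most differences, 12, covers bases 57 to 132 counted from the start codon. It lies at chr10:117292707-117292782 in Lyz1 and at chr10:117282111-117282186 in Lyz2, from the GENCODE M21 transcripts, and capitals mark the bases that differ.
Lyz1: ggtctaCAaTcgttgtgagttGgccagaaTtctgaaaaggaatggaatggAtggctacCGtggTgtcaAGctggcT
Lyz2: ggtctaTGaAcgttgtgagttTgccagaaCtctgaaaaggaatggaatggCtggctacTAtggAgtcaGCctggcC

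**Figure D1:**
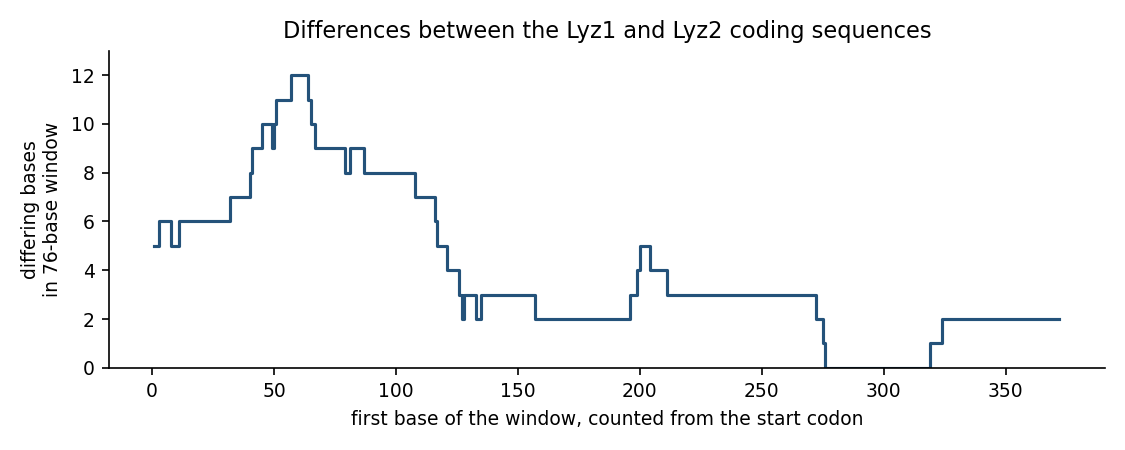
Number of bases that differ between the Lyz1 and Lyz2 coding sequences in a window of 76 bases, plotted against the window's first base counted from the start codon. The count reaches 12 near the start, and 43 of the 372 windows hold no difference.

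The window plot shows where a read within the coding sequence could not be placed, and leaves out the rest of the transcripts. Of the 372 coding windows, 43 were identical in both genes, and the longest identical run was 118 bases. Over the whole transcripts, 72 of 1188 windows of Lyz1 (6.06%) occurred exactly in Lyz2. The posterior SD of the deposited gene count, which measures how freely fragments could move between genes, was 0.45 fragments for Lyz1 and 0.45 for Lyz2 in replicate 1, and 0.21 and 0.39 fragments in replicate 2. Few fragments were therefore shared in the authors' estimate, but where a fragment lay within an identical window its place is uncertain.

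Fragments assigned to Ensembl genes, as the authors' expected counts (estimated numbers that need not be whole), summed to 47106979 in replicate 1 and 54129473 in replicate 2. Levels are given as TPM, the standard transcript abundance unit, which is scaled by length so that genes can be set beside each other. Expressed means that neither library was under 1 TPM, which held for 14303 of the 43346 genes (33%). The median TPM of those genes was 14.2 in replicate 1 and 12.7 in replicate 2. Where a pair of values stands without names, it is of replicate 1 and then of replicate 2, and ratios are replicate 1 over replicate 2. They are described and not tested, since no group stands against another. Genes are counted as apart where the expected count averaged 20 or more and the ratio of (TPM + 1) passed 2 in either direction, a scale that understates differences of low genes.

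Of the 10 markers 9 were expressed, with Timd4 below the threshold. The median TPM of all 10 was 11.4 in replicate 1 and 13.3 in replicate 2, close to that of expressed genes. Levels spanned a wide range: mean TPM ran from 309.6 for Lyz2 to 0.79 for Timd4. Together the 10 genes took 0.0518% of gene fragments in replicate 1 and 0.0573% in replicate 2.

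**Figure D2:**
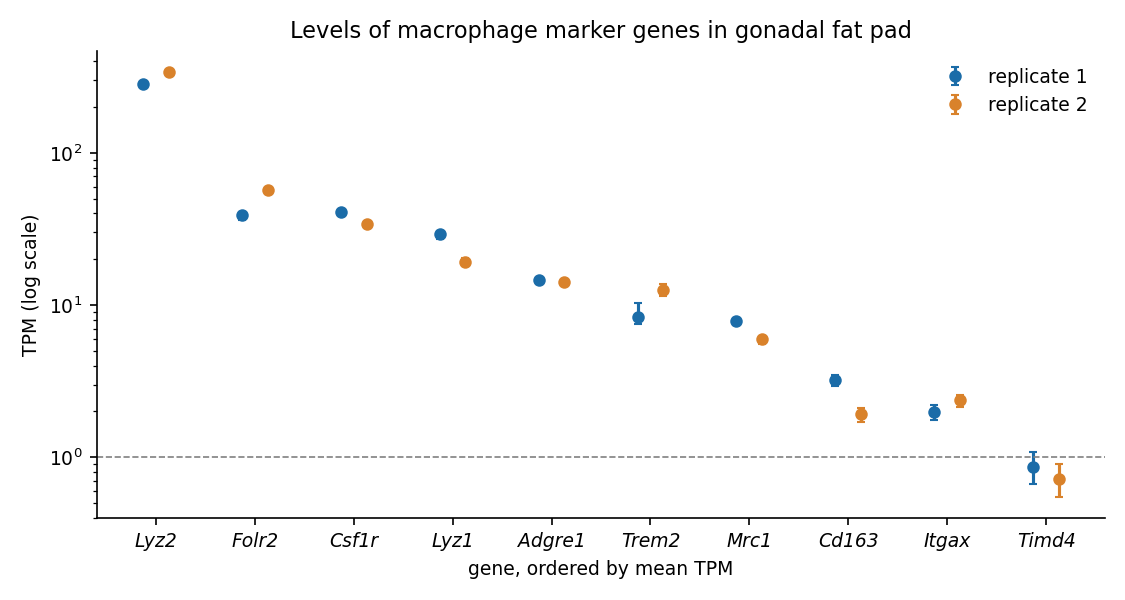
TPM on a log axis of each macrophage marker in replicate 1 (blue) and replicate 2 (orange), ordered by mean, with the deposited interval of each estimate as bars and 1 TPM as a dashed line. Lyz2 stood highest at 282 and 337 TPM, and Timd4 lay under the line in both libraries.

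Lysozyme transcripts came mostly from Lyz2. Lyz2 was at 282 TPM in replicate 1 and 337 TPM in replicate 2, above 96.9% and 97.4% of expressed genes. Lyz1 was at 29.3 and 19.3 TPM, from 1144 and 933 fragments. These neighbours differed in opposite directions between the libraries: the TPM ratio was 0.84 for Lyz2, with an interval of 0.82 to 0.86, and 1.52 for Lyz1, with an interval of 1.39 to 1.66. These are exact binomial 95% intervals from rounded counts, which cover counting error only. The level of Lyz2 was 9.62 times that of Lyz1 in replicate 1 and 17.5 times in replicate 2. Of the fragments of both genes, Lyz1 held 9.40% in replicate 1 (exact binomial 95% interval 8.89% to 9.93%) and 5.40% in replicate 2 (5.07% to 5.75%). The intervals did not overlap.

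No other lysozyme gene came near this pair. Of the 10 genes in the lysozyme family list, Lyz1 and Lyz2 were the 2 expressed. Lyzl4, a lysozyme-like gene, was at 0.87 and 1.78 TPM from 19 and 39 fragments. It was one of 3 genes of the list with enough fragments for the (TPM + 1) rule, and none of the 3 passed 2-fold on that scale, although the plain TPM of Lyzl4 was 2.05 times as high in replicate 2. Lyzl6 was at 0.43 and 0.45 TPM. Spaca5, a sperm acrosome gene, had no fragment in either library. Genes of Paneth cells, where Lyz1 is best known, were absent or nearly so: the defensins Defa17, Defa22 and Defa24 and the angiogenin Ang4 had no fragment in either library, and Mptx2 had 0 and 1. A count of 0 allows up to 3 fragments. Of that list of 6, the metalloprotease gene Mmp7, which other epithelia also express, was the 1 expressed, at 43.6 and 31.9 TPM.

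The genes that mark macrophages broadly were expressed at moderate levels. Csf1r, which lies on chromosome 18, was at 40.9 TPM in replicate 1 and 34.0 TPM in replicate 2, from 6751 and 6866 fragments. By fragments it was second only to Lyz2 among the 10, with transcripts of 3870 and 4701 bases. Its TPM ratio was 1.20, with a counting interval of 1.16 to 1.25. Adgre1 (chr17:57358691-57483527) was the steadiest of the 10 on the TPM scale, at 14.6 and 14.2 TPM, with a ratio of 1.03 and an interval of 0.96 to 1.10.

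The ligands of Csf1r were present and the adhesion receptor relatives of Adgre1 were uneven. Of the 8 genes of the CSF1 receptor axis 6 were expressed. Il34, which encodes a ligand of the receptor, was at 40.0 and 32.9 TPM. The gene of its other ligand, Csf1, was at 18.6 and 20.7 TPM. Csf2ra, a chain of the GM-CSF receptor, was at 39.4 and 38.4 TPM, and its ligand gene Csf2 was at 0 and 0.07 TPM. The granulocyte factor Csf3 was at 0.94 and 2.15 TPM. Of the ADGRE receptors 2 of 3 were expressed: Adgre5, which many leukocytes and other cells carry, was at 142 and 136 TPM, and Adgre4 was at 0.97 and 0.59 TPM. On the (TPM + 1) scale no gene of these lists passed 2-fold, although the plain TPM of Csf3 was 2.29 times as high in replicate 2.

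Among the resident markers, Folr2 stood apart from the other scavenger receptors. Folr2 (chr7:101839988-101857194) was at 38.9 TPM in replicate 1 and 56.6 TPM in replicate 2. Mrc1 (chr2:14229392-14332057) was at 7.89 and 5.95 TPM and Cd163 (chr6:124304656-124330527) at 3.22 and 1.92 TPM. Timd4 (chr11:46810800-46844332) was at 0.86 and 0.72 TPM from 63 and 65 fragments, which is well above the 0.041 and 0.033 TPM that 3 fragments would give. Folr2 was higher in replicate 2, with a TPM ratio of 0.69 and a counting interval of 0.64 to 0.74. Mrc1 and Cd163 were higher in replicate 1, with ratios of 1.33 (1.23 to 1.43) and 1.68 (1.46 to 1.92). Timd4 had a ratio of 1.19, and its interval of 0.83 to 1.72 holds 1.

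Each resident receptor was then set beside its family. Folr1, the folate receptor of epithelia, was at 66.3 and 36.7 TPM, so the level of Folr2 was 0.59 times that of Folr1 in replicate 1 and 1.54 times in replicate 2. The order of these folate receptors thus differed between the libraries. The folate carrier gene Slc19a1 was at 51.6 and 64.6 TPM, and Slc46a1, another carrier, was at 48.0 and 59.2 TPM. Of the 5 genes of the list 4 were expressed. Of the mannose receptor family 3 of 4 were expressed, led by Mrc2, a collagen receptor of fibroblasts, at 13.3 and 14.1 TPM, above Mrc1 in both libraries. Ly75 was at 0.26 and 0.21 TPM. No gene of the TIM family reached 1 TPM in both libraries: beside Timd4, Timd2 was at 0.64 and 0.22 TPM and Havcr1 at 0.06 and 0.03 TPM.

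Most genes that act with these receptors stood above them, in RNA read from all cells of the tissue together. Which cells made these transcripts was not measured. All 6 genes of haemoglobin uptake and haem handling were expressed. Hp, whose product haptoglobin carries haemoglobin to CD163, was at 1184 and 1889 TPM. Slc48a1, a haem transporter, was at 124 and 176 TPM, and Blvrb, a biliverdin reductase, at 78.1 and 79.0 TPM. The iron exporter gene Slc40a1 was at 4.02 and 4.04 TPM. Of the 8 genes of apoptotic cell uptake, the process TIM-4 serves, 6 were expressed. They were led by the bridging ligand gene Gas6 at 134 and 118 TPM and the scavenger receptor gene Stab1 at 60.5 and 74.5 TPM. The receptor kinase gene Axl was at 46.8 and 43.1 TPM, and its relative Mertk was at 8.40 and 6.74 TPM. Timd4 and Stab2 were the lowest, Stab2 at 0.65 and 0.39 TPM.

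The lipid-associated markers Trem2 and Itgax were both higher in replicate 2. Trem2 stood above 36.2% and 49.7% of expressed genes, and Itgax, which was low, above 7.15% and 12.5%. Trem2 (chr17:48346401-48354147) was at 8.31 TPM in replicate 1 and 12.5 TPM in replicate 2, from 319 and 600 fragments. Its TPM ratio was 0.66, with a counting interval of 0.58 to 0.76. Itgax (chr7:128129547-128150657) was at 1.99 and 2.37 TPM, from 284 and 421 fragments. Its ratio was 0.84, with an interval of 0.72 to 0.98. Of the 3971 windows of 76 bases in the Itgax transcript, 235 (5.92%) also occurred in the related gene Itgad, which was at 0.18 and 0.31 TPM, so fragments there could be split between them. The other 7 markers besides Itgax and the lysozyme pair shared no window with a transcript of another gene.

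The partners of TREM2 were uneven in level, and that of CD11c stood above it. Tyrobp, the adaptor through which TREM2 signals, was at 119 and 127 TPM, and the kinase gene Syk was at 27.4 and 17.8 TPM. Hcst, the gene of another adaptor of this kind, was below Trem2, at 4.50 and 7.56 TPM. Trem2 was the only gene of the 6 TREM receptors that was expressed: Trem1 was at 0.01 and 0.1 TPM, and Trem3 at 0.07 and 0.03 TPM. With the adaptors, 4 of the 9 genes of that list were expressed. Of the beta-2 integrins 4 of 5 were expressed. Itgb2, the chain that pairs with CD11c, was at 14.6 and 16.7 TPM, and Itgam, the CD11b chain, was at 11.4 and 13.4 TPM. Itgal, the chain of lymphocytes and other leukocytes, was at 2.43 and 2.63 TPM, slightly above Itgax.

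By mean TPM the order was Lyz2, Folr2, Csf1r, Lyz1, Adgre1, Trem2, Mrc1, Cd163, Itgax and Timd4. Folr2 and Csf1r could not be ranked beyond their spread: Csf1r was higher in replicate 1 and Folr2 in replicate 2. Cd163 and Itgax, at a mean of 2.57 ± 0.92 and 2.18 ± 0.27 TPM (SD, n = 2), also changed places between the libraries. The other neighbours in this order did not overlap in TPM between the libraries. Expressed per Csf1r, a comparison chosen after the values were seen, Trem2 was 0.20 in replicate 1 and 0.37 in replicate 2, Folr2 was 0.95 and 1.67, and Adgre1 was 0.36 and 0.42. Mrc1 was 0.19 and 0.18 per Csf1r, and Cd163 was 0.079 and 0.057.

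**Figure D3:**
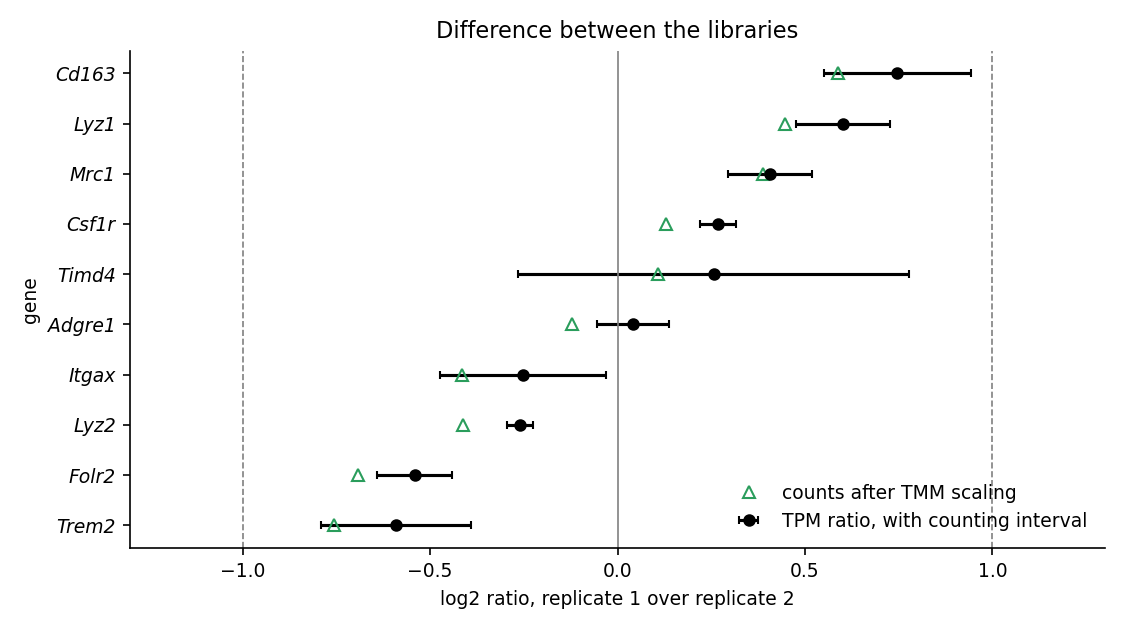
The log2 ratio of replicate 1 over replicate 2 for each macrophage marker, from TPM (black, with the exact binomial 95% interval of the counts) and from counts after TMM scaling with no pseudocount (green triangles), with dashed lines at 2-fold. No gene lay beyond the 2-fold lines, and Adgre1 lay on opposite sides of 0 under these scalings.

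The markers differed between the libraries by less than 2-fold. All 10 markers passed the count minimum and 0 were apart, against 2.7% of the 16920 genes tested. Those apart were 261 genes higher in replicate 1 (1.54%) and 195 higher in replicate 2 (1.15%), or 170 and 228 after TMM scaling of the counts. The median absolute log2 ratio was 0.31 for the markers and 0.23 for expressed genes. The deposited TPM intervals of the libraries, whose level is not stated in the tables, did not overlap for 7 of the 10 markers, against 48.1% of the genes tested. Adgre1, Itgax and Timd4 were the 3 that overlapped. Such intervals cover the estimate within a library and no spread between animals.

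Directions were read against the shift of all genes. On the log2(TPM + 1) scale the median expressed gene had a ratio of 0.12, and after TMM scaling -0.02. Lyz1, Mrc1, Cd163 and Csf1r were higher in replicate 1 under every scaling tried, and Lyz2, Folr2, Trem2 and Itgax were higher in replicate 2. Adgre1 stood at a log2 ratio of 0.04 by TPM and -0.12 after TMM scaling. For Timd4 it was 0.11 by TPM and 0.06 after TMM scaling, and the TPM value was -0.0041 once the shift of expressed genes was taken off. That closeness to the median depends on the pseudocount of 1, which exceeds the TPM of Timd4 in both libraries. With a pseudocount of 0.1 its log2 ratio was 0.23. The resident markers thus did not share a direction. The summed TPM of Mrc1, Cd163, Timd4 and Folr2 was 50.9 in replicate 1 and 65.2 in replicate 2, which was 4.94 and 4.38 times the sum of Trem2 and Itgax. Without Folr2, a comparison chosen after the values were seen, the sums were 11.97 and 8.59 TPM, which was 1.16 and 0.58 times that of Trem2 and Itgax. By expected counts, which carry no length scaling, it was 3.28 and 1.60 times.

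**Figure D4:**
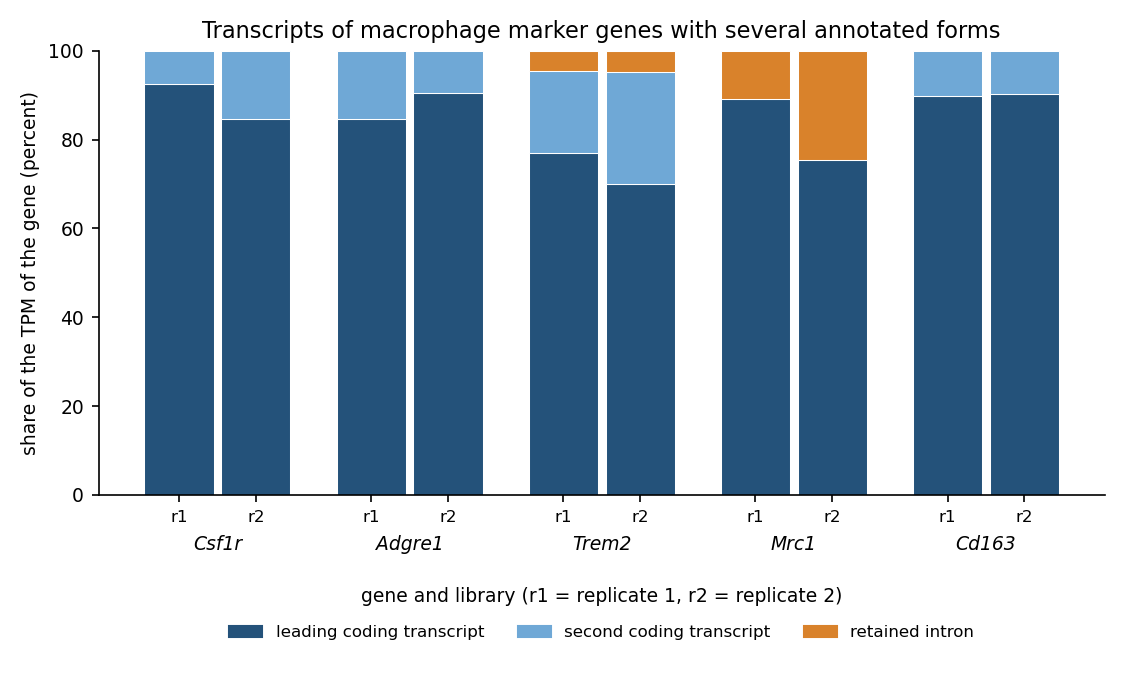
Share of each gene's TPM carried by its transcripts in replicate 1 (r1) and replicate 2 (r2), for the 5 markers with several annotated forms: leading coding transcript in dark blue, second coding transcript in light blue, retained intron in orange. The retained-intron form of Mrc1 held 10.9% in replicate 1 and 24.5% in replicate 2.

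Of the 10 genes 5 had several annotated transcripts in the deposited tables, and each was led by 1 coding form. The share of Mrc1 carried by Mrc1-202, annotated as a retained intron, was 10.9% in replicate 1 and 24.5% in replicate 2, from 59.5 and 125 fragments. Its last exon (chr2:14329883-14331927) runs through the final intron of Mrc1-201, the coding form. The coding form alone was at 7.03 and 4.49 TPM, and its deposited intervals of 6.57 to 7.32 and 4.18 to 4.73 TPM did not overlap. Mrc1-202 was at 0.86 and 1.46 TPM, with intervals of 0.58 to 1.18 and 1.14 to 1.78 TPM that did overlap.

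Trem2 was led by Trem2-201, with 76.9% and 70.0% of its TPM. Trem2-202, a coding form with an exon 4 of its own (chr17:48351691-48351930, 240 bases), held 18.6% and 25.2%. At 1.54 and 3.15 TPM its intervals of 0.83 to 2.29 and 2.18 to 4.23 TPM overlapped slightly. Trem2-203, a retained-intron form, held 4.45% and 4.78%.

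The forms of the other 3 genes differed mainly near their ends. Csf1r-202, whose last exon is 1846 bases long, held 92.5% of the TPM of Csf1r in replicate 1 and 84.6% in replicate 2. Csf1r-201, whose last exon is 831 bases long, held 7.49% and 15.4%, and its intervals of 1.81 to 4.51 and 3.46 to 7.58 TPM overlapped. Adgre1-202 held 84.7% and 90.4%. The other form, Adgre1-201, splits the last exon of Adgre1-202, and its intervals of 0.63 to 4.64 and 0.34 to 3.06 TPM were wide. Cd163-201 held 89.8% and 90.3% of the TPM of Cd163. The alternative form Cd163-202, with an exon 16 of 136 bases in place of 53, was at 0.33 and 0.19 TPM.

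Wider lists placed the 10 markers among other macrophage genes. In the macrophage core list 16 of 17 genes were expressed. The median was 22.6 TPM in replicate 1 and 20.1 TPM in replicate 2, with a summed level of 915 and 1042 TPM. After Lyz2 it was led by C1qb, Tyrobp and C1qc, and its lowest were Msr1, a scavenger receptor, at 0.80 and 1.21 TPM, and Aif1, which encodes a calcium-binding protein of macrophages, at 2.78 and 1.95 TPM. Of the 16 genes of the resident and perivascular list 14 were expressed, and the median was 14.7 and 15.2 TPM. Its highest, Selenop and Gas6, are also made by many other cells, and Cbr2, a carbonyl reductase gene, was at 98.9 and 99.6 TPM. The receptor gene Lyve1, shared with lymphatic endothelium, was at 5.17 and 11.0 TPM. The complement receptor gene Vsig4 was at 0.15 and 0.50 TPM. On the (TPM + 1) scale no gene of either list that reached the count minimum passed 2-fold. By plain TPM Lyve1 was 2.12 times as high in replicate 2, from 461 and 1214 fragments, and Vsig4, with 7 and 28 fragments, was under the count minimum. After TMM scaling the log2 ratio of Lyve1 was -1.16, over 2-fold.

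All 16 genes of the lipid-associated list were expressed, with a median of 65.8 TPM in replicate 1 and 109 TPM in replicate 2. Of the 16 genes 13 were higher in replicate 2 and 3 in replicate 1, however small the difference. The median log2(TPM + 1) ratio was -0.32 for the list and 0.12 for expressed genes. Over 2-fold higher in replicate 2 were 2 genes of the list, against 1.15% of all genes tested. The 2 were the droplet protein gene Plin2, at 102 and 323 TPM, and the lipid carrier gene Fabp5, at 26.4 and 65.3 TPM. After TMM scaling Lgals3, at 97.2 and 186 TPM, was also over 2-fold, at a log2 ratio of -1.12. The list was led by Apoe at 3044 and 2406 TPM and the lysosomal protease genes Ctsd at 891 and 1333 TPM and Ctsb at 258 and 384 TPM. Most of these genes are also made by fat cells or by many cell types. The lowest were Spp1, which encodes osteopontin, at 1.01 and 1.32 TPM, and Itgax. Mmp12, macrophage elastase, was at 2.42 and 4.23 TPM. Gpnmb, a glycoprotein of lipid-laden macrophages, was at 34.4 and 38.9 TPM.

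Of the macrophage transcription factor genes 11 of 12 were expressed, and their median was 13.4 and 7.99 TPM. Spi1, which encodes PU.1, a factor of the myeloid lineage, was at 17.4 and 24.9 TPM. Nr1h3, a sterol receptor, led with 55.9 and 78.9 TPM, followed by Zeb2 at 48.2 and 43.6 TPM. Runx1, at 17.8 and 7.34 TPM, and Bhlhe41, at 28.3 and 13.2 TPM, were the 2 over 2-fold higher in replicate 1. Of all genes tested 1.54% were. After TMM scaling Bhlhe41 fell just under 2-fold, at a log2 ratio of 0.99, and Runx1 stayed over it at 1.12. Spic, a factor of red pulp macrophages of the spleen, was at 0.21 and 0.08 TPM.

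**Figure D5:**
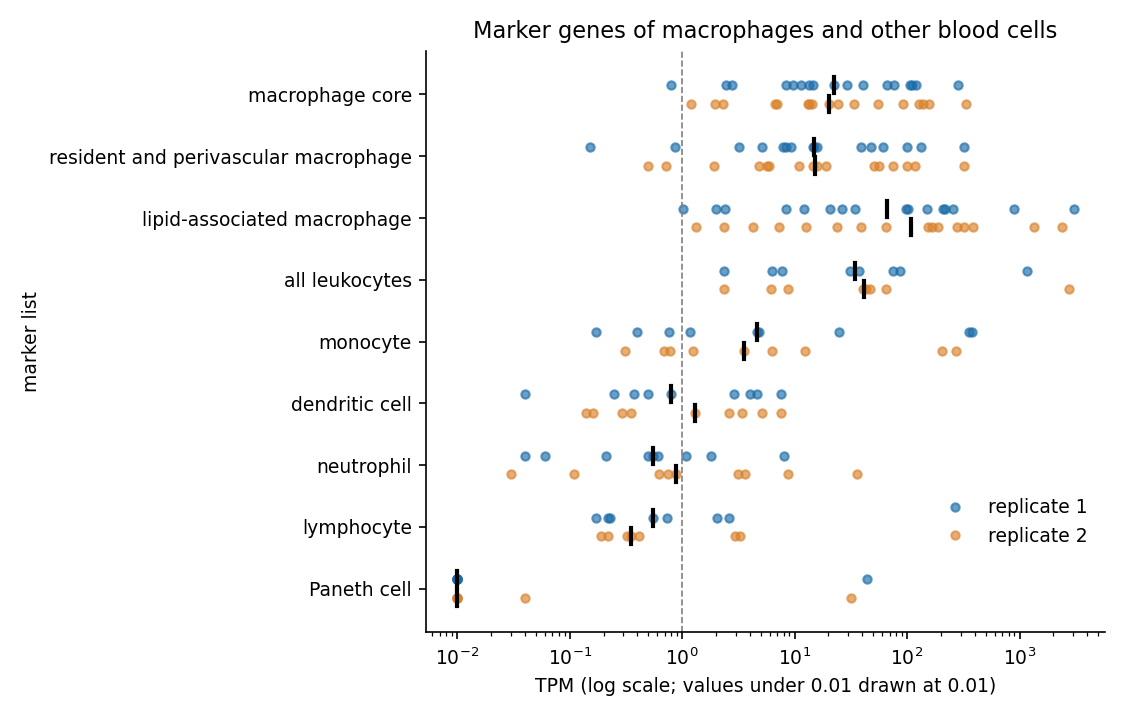
TPM on a log axis of each gene in lists of macrophage and other blood cell markers, in replicate 1 (blue) and replicate 2 (orange), with the median as a black bar and 1 TPM as a dashed line. The macrophage core, resident and lipid-associated lists had medians of 14.7 TPM or more in both libraries, and the dendritic cell, neutrophil and lymphocyte medians lay at 1.31 TPM or less.

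Other blood cells can carry several of these markers, and their own genes ranged widely. Of the 9 dendritic cell genes 4 were expressed. Their median was 0.80 and 1.31 TPM and their sum 21.03 and 20.92 TPM. Zbtb46 was highest, at 7.57 and 7.56 TPM, and Xcr1, a marker of cross-presenting dendritic cells, was at 0.25 and 0.16 TPM. Of the 9 monocyte genes 6 were expressed, and the median was 4.62 and 3.55 TPM. The highest were Plac8 at 354 and 272 TPM and Ace at 374 and 206 TPM, near the level of Lyz2 and above the other 9 markers, and both are also made by epithelia. Nr4a1, a factor of patrolling monocytes that many cells induce, was at 24.9 and 12.5 TPM. The monocyte receptor gene Ccr2 was at 4.62 and 6.31 TPM. Of the lymphocyte genes 2 of 7 were expressed. Their median was 0.55 and 0.35 TPM, and the highest was Cd79b at 2.60 and 2.93 TPM.

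Neutrophil genes, a second source of Lyz2 in the mouse, passed 1 TPM in both libraries for 2 of 9, and their median was 0.55 and 0.89 TPM. Their sum was 12.96 TPM in replicate 1 and 53.7 TPM in replicate 2. Ltf, the lactoferrin gene, which epithelia also make, accounted for most of it at 8.10 and 35.9 TPM. S100a8 was at 0.61 and 8.68 TPM from 4 and 68 fragments, and Retnlg at 0.55 and 3.14 TPM. Csf3r, the other expressed gene, was at 1.80 and 3.59 TPM from 191 and 391 fragments. These 4 genes were the ones of the list past the count minimum, and all 4 were higher in replicate 2. S100a9, whose product pairs with that of S100a8, was at 1.09 and 0.89 TPM from 12 and 12 fragments. It was under the count minimum, and its ratio interval of 0.50 to 2.98 holds 1. Ltf, S100a8 and Retnlg were the 3 over 2-fold higher in replicate 2, against 1.15% of all genes tested. After TMM scaling Retnlg fell under 2-fold, at a log2 ratio of -0.81. Mpo and Ly6g, the lowest of the list, had 1 fragment each in replicate 1 and 3 and 1 fragments in replicate 2. The part of neutrophils in the difference of Lyz2 was not tested.

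Marker genes of other parts of the tissue also differed in level between the libraries. All 4 epididymis genes were expressed and all 4 were higher in replicate 1, with a sum of 24708 TPM against 13531 TPM in replicate 2. Lcn8 and Spag11b were the 2 over 2-fold, against 1.54% of all genes tested. The log2 ratio of Lcn8 was 1.32 by TPM and 1.18 after TMM scaling. That of Spag11b was 1.02 by TPM and 0.49 after TMM scaling, under 2-fold. All 4 adipocyte genes were expressed, with a sum of 5339 TPM in replicate 1 and 6690 TPM in replicate 2, but by TPM they did not share a direction. Fabp4, at 2869 and 2744 TPM, and Plin1, at 654 and 578 TPM, were slightly higher in replicate 1 by TPM. Cidec, at 1049 and 2068 TPM, and Adipoq, at 767 and 1299 TPM, were higher in replicate 2. After TMM scaling the log2 ratio was -0.11 for Fabp4, thus higher in replicate 2, and 0.02 for Plin1. For Cidec it was -1.13, over 2-fold, and for Adipoq -0.91. None of these markers was at 0. All 8 genes shared by leukocytes were expressed, with a sum of 1422 and 2944 TPM, of which Cd52, also a major product of the epididymis, gave 1175 and 2732 TPM and was over 2-fold higher in replicate 2. Without Cd52 the sum was 247 and 212 TPM. The pan-leukocyte gene Ptprc was at 6.30 and 6.22 TPM. The part of tissue composition in the differences of Lyz1, Folr2, Trem2, Mrc1 and Cd163 was not tested, and in bulk RNA fewer cells of a type cannot be told apart from less RNA per cell.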

How the data were processed

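The authors deposited 1 gene table and 1 transcript table per library, on mm10 with GENCODE annotation M4 per the notes beside the files. Which aligner and which quantifier were run is not given in the sources used here. Per the file headers the deposited values are expected counts (estimated fragments), TPM, FPKM, posterior means of these, posterior SDs of the count, bounds of a TPM interval, and the percent of a gene's TPM held by each transcript. Deposited tables of junctions and contigs on mm9 were not used, since no mm9 annotation was at hand. Symbols were matched by Ensembl identifier for 42462 of 43346 genes, and positions, transcript types and lengths come from GENCODE M21. Of the 17 transcripts of the markers, 10 had the same length in both releases.

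Rows without an Ensembl gene, spike-ins among them, held 2.28% of expected counts in replicate 1 and 1.83% in replicate 2 and were left out; the deposited TPM still counts them in its total. Ratios used a pseudocount of 1. Expected counts were rounded for TMM scaling in edgeR 4.0.16, for DESeq2 1.42.0 size factors and for exact binomial 95% intervals. The floor was 3 fragments. Intervals and floors cover counting error only. No test between conditions exists with 1 group of 2 replicates. The 2-fold rule was tested on simulated data that held counting error only and changes well beyond 2-fold. Spread between animals and calls near 2-fold were not covered.

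The markers, the gene lists and the rules were chosen with earlier results of these data known. All 10 markers are named, and of each list up to 4 of the highest and 2 of the lowest genes. Others, namely Lyve1, Gpnmb, S100a9, Mmp12, Plin2, Fabp5, Lgals3, Mertk, Runx1 and Bhlhe41, were named after their values were seen. Likeness of pattern was not computed, since 2 libraries give 1 difference per gene.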

Additional observations from a re-analysis of the deposited data

How the results depend on the processing

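No paired analysis was possible because the 2 replicates form 1 group. The number of markers expressed was 9, and stayed at 9 with posterior mean TPM, with coding transcripts alone and in either library alone; it was 10 at a threshold of 0.5 TPM and 7 at 5 TPM. The count of markers over 2-fold apart was 0 under all 7 alternatives. The count over all genes was 456, and 1074 with a pseudocount of 0.1. The ratio of Lyz2 to Lyz1 ranged from 9.62 to 17.5 and that of Folr2 to Folr1 from 0.59 to 1.54 between the libraries, each library alone. By expected counts, which carry no length scaling, Folr2 stood at 1.47 times Folr1 on average. The ratio of resident to lipid-associated markers was 4.66 on average and 0.87 without Folr2, an alternative chosen after seeing the data; without Folr2 it was 2.44 by expected counts, above 1 in both libraries. Of 50 alternative values for log2 ratios of single markers 35 moved by less than 0.5 times the width of their counting interval. With 1 library left out no ratio between libraries exists. Depth limits Timd4 most, at 63 and 65 fragments.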
